A study of Homo sapiens with 6 samples.

Results

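Cohesin, the proteins that load, hold and release it, and CTCF are described here through the transcripts of 10 genes, RAD21, STAG1, STAG2, SMC1A, SMC3, NIPBL, WAPAL, PDS5A, PDS5B and CTCF. The genes were chosen by name among the 57820 genes of the count tables, where WAPAL is the older name of WAPL, and all 10 had enough counts to be tested. RNA-seq had been done on AID-DIvA cells, which descend from the osteosarcoma line U2OS and hold an AsiSI nuclease under control of 4-hydroxytamoxifen and auxin, and both genotypes carried this nuclease without its induction. The samples were 3 wild-type (WT) and 3 ARID1A-knockout (ARID1A-KO) cultures, all untreated and numbered 3 to 5 in each genotype. Knockout clones had been made with Cas9 and a pair of guides against ARID1A, and which clone, or how many, was sequenced is not given in the sources used here, so that an effect of the knockout and a property of a clone cannot be told apart. The study describes its replicates as independent experiments, and the p-values below measure the spread between them.

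Cohesin is a ring that holds DNA, made of the SMC1A and SMC3 ATPases, the kleisin RAD21 that closes the ring, and one of the alternative SA subunits STAG1 and STAG2. NIPBL, with its partner MAU2, drives loading and loop extrusion, WAPAL releases the ring, and PDS5A and PDS5B bind it and act in both its release and its protection. CTCF is the zinc-finger protein that binds DNA at loop anchors and halts extruding cohesin, so that loops and topologically associated domains form between its sites. ARID1A is a DNA-binding subunit of the SWI/SNF remodeling complex, and the study asked how it acts on chromatin loops with RAD21 and CTCF, which makes the transcript levels of these genes a comparison of its own.

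Each sample had between 54512105 and 84088708 reverse-stranded counts in genes, and each of the 10 genes had between 3102 and 34341 of them, so that the spread between samples, not counting error, limited the comparisons. Values are given as CPM, the counts of a gene divided by the library size in units of 1000000, after TMM normalization. Summed levels of whole lists are instead CPM without TMM normalization. The genotypes were compared by edgeR's quasi-likelihood test, and a gene is called when its p-value adjusted over the 19599 genes tested is under 0.05. ARID1A itself had 166, 178 and 177 CPM in the WT samples and 25.1, 27.5 and 25.2 CPM in the ARID1A-KO samples. Of the 8 osteoblast markers 5 could be tested and 4 of these were called lower in ARID1A-KO, against 18.4% of all genes tested. ALPL (log2 fold change -2.45), SPP1 (-1.45), SPARC (-0.89) and COL1A1 (-0.47) were lower, and RUNX2 (-0.033) was not called. Their summed level was 1201 to 1274 CPM in WT and 722 to 846 CPM in ARID1A-KO. The largest parts were SPARC, with means of 757 and 410 TMM-normalized CPM, and COL1A1, with 447 and 322. SP7, BGLAP and IBSP had at most 12 counts in any sample. The 3 mesenchymal markers summed to between 2674 and 3342 CPM in WT and between 4598 and 5292 CPM in ARID1A-KO, of which VIM was called higher (log2 fold change 0.84) while FN1 (-0.19) and COL1A2 (-0.46) were not called. The 3 epithelial markers summed to between 253 and 299 CPM and between 141 and 154 CPM, with KRT8 (-0.96) and CDH1 (-1.19) called lower and EPCAM (0.44) higher. Blood markers summed to no more than 2.48 CPM in any sample. The part of these differences in the results below was not tested. In such bulk libraries, fewer cells with a transcript and less of it per cell cannot be told apart.

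At an adjusted p under 0.05, 5 of the 10 genes were called, against 36.2% of all genes tested. SMC3, WAPAL and CTCF rose in ARID1A-KO cells (3 of 10, against 17.8% of all genes) and STAG1 and SMC1A were lower (2 of 10, against 18.4%). For 6 of the 10, the called ones and RAD21, the CPM of the genotypes did not overlap, as for 49.5% of all genes. The median log2 fold change of the 10 genes was -0.029, beside 0.0066 over all genes tested, and their summed level was 1556 to 1767 CPM in WT and 1596 to 1726 CPM in ARID1A-KO. The 5 genes of the ring and its SA subunits, SMC1A, SMC3, RAD21, STAG1 and STAG2, summed to 1054, 937 and 964 CPM in WT and 935, 881 and 928 CPM in ARID1A-KO samples. These sums of 5 genes, which are of TMM-normalized CPM, did not overlap between the genotypes, by a narrow margin. Those of all 10 genes overlapped, but without TMM normalization, so that the sums cannot be set against each other. Neither was tested. Among 8 proliferation genes MCM2 (log2 fold change -0.47) and CCNA2 (-0.28) were called lower and none higher, the median was -0.16, and the summed level was 3017 to 3374 CPM in WT and 2794 to 3297 CPM in ARID1A-KO. Their part in the changes of the cohesin genes was not tested.

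**Figure D1:**
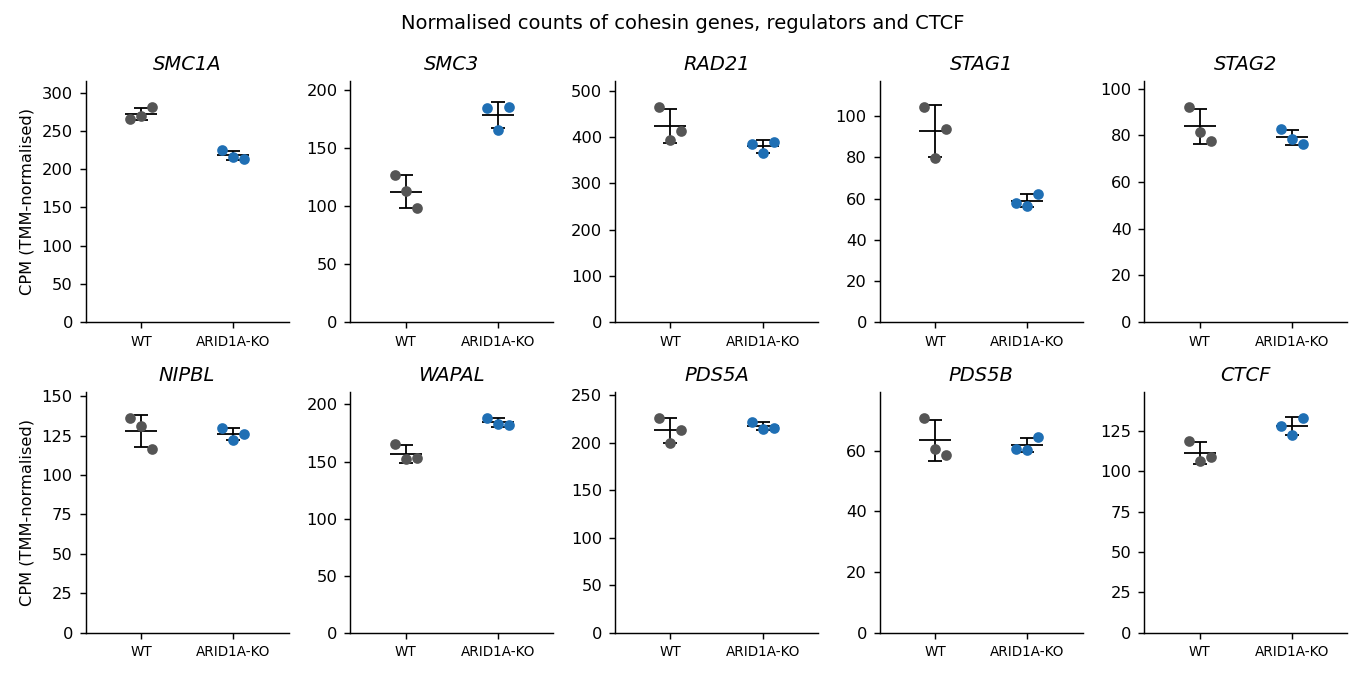
TMM-normalised CPM (y axes, linear from 0) of the 10 genes in each WT (grey) and ARID1A-KO (blue) sample, with bars for mean and SD of 3 samples. The genotypes do not overlap for SMC1A, SMC3, RAD21, STAG1, WAPAL and CTCF, and overlap for STAG2, NIPBL, PDS5A and PDS5B.

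Promoters are shown for SMC1A and SMC3, the SMC subunits that were called in opposite directions, and for STAG1 and STAG2, the alternative SA subunits of which STAG1 alone was called. Each stretch holds the 250 bases before a start site of the gene, read 5′ to 3′ on the strand of the gene, from RefSeq in GRCh38.p14, a newer build than the GRCh37 of the count tables. Capitals mark matches on either strand to the GC box (GGGCGG), the NF-Y box (CCAAT) or the ETS core (CCGGAA), and no match of a motif overlapped one of another in these 4 stretches. For STAG2 the first of 3 start sites and for SMC1A the first of 2 is given. The windows lie at chrX:53422729-53422978 on the minus strand for SMC1A, at chr10:110567445-110567694 on the plus strand for SMC3, at chr3:136752379-136752628 on the minus strand for STAG1 and at chrX:123960310-123960559 on the plus strand for STAG2.
SMC1A: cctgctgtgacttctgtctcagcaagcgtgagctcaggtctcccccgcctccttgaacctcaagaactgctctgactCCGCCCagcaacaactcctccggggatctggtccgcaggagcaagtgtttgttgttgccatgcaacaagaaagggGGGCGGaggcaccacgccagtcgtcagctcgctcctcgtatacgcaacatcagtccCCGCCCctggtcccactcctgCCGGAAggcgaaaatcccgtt
SMC3: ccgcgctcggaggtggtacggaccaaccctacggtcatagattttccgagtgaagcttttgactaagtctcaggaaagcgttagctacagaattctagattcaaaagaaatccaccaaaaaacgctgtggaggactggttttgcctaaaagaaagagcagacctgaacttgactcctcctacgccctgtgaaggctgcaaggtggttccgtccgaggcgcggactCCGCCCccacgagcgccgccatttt
STAG1: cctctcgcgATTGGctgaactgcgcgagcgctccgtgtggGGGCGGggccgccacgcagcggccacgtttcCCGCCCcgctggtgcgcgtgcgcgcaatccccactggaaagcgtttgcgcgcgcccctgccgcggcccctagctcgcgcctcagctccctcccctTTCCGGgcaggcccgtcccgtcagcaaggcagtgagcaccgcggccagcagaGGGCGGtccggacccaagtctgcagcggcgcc
STAG2: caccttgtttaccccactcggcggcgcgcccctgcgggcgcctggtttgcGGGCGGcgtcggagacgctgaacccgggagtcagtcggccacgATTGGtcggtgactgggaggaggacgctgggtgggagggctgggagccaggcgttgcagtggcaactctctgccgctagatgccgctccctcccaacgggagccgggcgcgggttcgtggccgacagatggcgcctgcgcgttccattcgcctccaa

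RefSeq entries matched 9 of the 10 genes, all but RAD21, with 12 start sites in all. STAG2 has 3 of these, and SMC1A has 2 whose windows overlap, so that the 12 windows are not independent. A GC box was found before 12 of these 12 start sites, against 42.6% of the 35116 promoters of the same length in the table, an NF-Y box before 6 of 12 (32.0%) and an ETS core before 4 of 12 (14.5%). The 12 windows are rich in G and C, at 52.8% to 78.0% with 13 to 41 CpG dinucleotides each, where all promoters have a median of 58.0% and 11. SMC3, the gene with the largest rise, has the lowest GC content of them (52.8%), 17 CpG dinucleotides and a single GC box close to its start. STAG1, the gene with the largest fall, has 74.4%, 34 CpG dinucleotides, 3 GC boxes, an NF-Y box and an ETS core. The first STAG2 window has 70.0%, 29 CpG dinucleotides, 1 GC box and 1 NF-Y box. Of the other called genes, WAPAL (77.2%) and CTCF (76.8%), which rose, have a higher GC content than STAG1. SMC1A, which was lower, has 60.4% in its first window. A relation of GC content to the changes was not tested. None of the 12 windows holds an E-box (CACGTG, in 6.34% of all promoters), an AP-1 site (TGANTCA, in 6.57%) or a TATA box (TATAAA, in 10.7%). These matches are letters in a window, and no data on binding were analysed here.

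The SMC ATPases of the ring moved in opposite directions. SMC3 (ENSG00000108055.9, chromosome 10 from 112327449 to 112364394 in GRCh37, plus strand) had 127, 113 and 98.2 CPM in WT samples and 185, 166 and 186 CPM in ARID1A-KO samples. Every ARID1A-KO sample was thus above every WT sample, and the mean was 58.9% higher (log2 fold change 0.67, SE 0.094, edgeR adjusted p = 0.000597), the largest rise among the 10 genes. SMC1A (ENSG00000072501.13, chromosome X from 53401070 to 53449677, minus strand) had 265, 269 and 281 CPM in WT and 225, 215 and 213 CPM in ARID1A-KO samples. Again no sample overlapped, here with all ARID1A-KO samples below WT, and the mean was 19.8% lower (log2 fold change -0.32, SE 0.058, edgeR adjusted p = 0.00245). A loess offset on exonic length brought this fall to -0.18 (edgeR adjusted p = 0.0451).

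Since both SMC proteins enter the ring together, their transcript levels were set against each other on the authors' TPM scale. This scale divides counts by the exonic length of a gene. The TPM of SMC3 came to 1.19, 1.05 and 0.872 times that of SMC1A in the WT samples, and to 2.05, 1.92 and 2.17 times in the ARID1A-KO samples. In WT, the transcripts were close to equal and their order changed from sample to sample, while in each ARID1A-KO sample SMC3 was well above SMC1A.

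RAD21 (ENSG00000164754.8, chromosome 8 from 117858174 to 117887105, minus strand), whose protein links the SMC heads and is cut by separase in mitosis, had the highest TPM of the 10 genes in every sample. It had 465, 395 and 413 CPM in WT and 384, 365 and 390 CPM in ARID1A-KO samples. The genotypes did not overlap, with the highest ARID1A-KO sample just under the lowest WT sample, and the difference did not pass the threshold (log2 fold change -0.16, SE 0.075, 95% interval -0.33 to 0.0087, edgeR adjusted p = 0.126). It was smaller still without WT replicate 3 (-0.097) and with an offset on GC content (-0.041). Relative to SMC1A, RAD21 had 3.02, 2.53 and 2.53 times the TPM in WT and 2.94, 2.92 and 3.15 times in ARID1A-KO samples, and these ranges overlapped. UTP23 and RAD21-AS1 overlap RAD21 on the opposite strand. Reverse-stranded counting kept them apart, as the counts without regard to strand were 95.9% to 96.6% of the reverse-stranded counts of RAD21.

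Of the alternative SA subunits, STAG1 fell and STAG2 was not called. STAG1 (ENSG00000118007.8, chromosome 3 from 136055077 to 136471220, minus strand), whose form of cohesin is known for stable binding at CTCF sites and for telomere cohesion, had 105, 79.5 and 94.0 CPM in WT and 57.9, 56.4 and 62.4 CPM in ARID1A-KO samples. Each ARID1A-KO sample was below each WT sample, and the mean was 36.4% lower (log2 fold change -0.65, SE 0.097, 95% interval -0.87 to -0.44, edgeR adjusted p = 0.000786), the largest fall of the 10 genes. STAG2 (ENSG00000101972.14, chromosome X from 123094062 to 123556514, plus strand), a gene often mutated in cancer whose form of cohesin is more mobile, had 92.3, 81.7 and 77.8 CPM in WT and 82.6, 78.6 and 76.3 CPM in ARID1A-KO samples. Its genotypes overlapped, with a log2 fold change of -0.084 (SE 0.075, 95% interval -0.25 to 0.084, edgeR adjusted p = 0.417). PCCB overlaps STAG1 on the opposite strand, and the counts of STAG1 without regard to strand, 87.5% to 91.2% of the reverse-stranded ones, gave a log2 fold change of -0.61 (edgeR adjusted p = 0.00113).

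The log2 ratio of STAG1 to STAG2 counts within a sample does not depend on how libraries are scaled. It was 0.18, -0.038 and 0.27 in the WT samples and -0.51, -0.48 and -0.29 in the ARID1A-KO samples, so that no ARID1A-KO sample reached the lowest WT sample. The difference was -0.57 (SE 0.12), with p = 0.1 in a two-sided exact permutation test, the smallest p that 3 samples against 3 allow, and 0.15 after Benjamini-Hochberg adjustment over the 3 ratios compared. In edgeR with the STAG2 counts as offset, a fit chosen after seeing the data, STAG1 relative to STAG2 had a log2 fold change of -0.57 (SE 0.11, 95% interval -0.81 to -0.33, adjusted p = 0.00191), where 28.9% of all genes were called. On the TPM scale, STAG1 made up 53.5% ± 2.76 (SD, n = 3) of the sum of both genes in WT and 43.8% ± 2.07 in ARID1A-KO. The STAG1 share was thus above that of STAG2 in all WT samples, the lowest being 50.5%, and below it in all ARID1A-KO samples, the highest being 46.2%. In WT replicate 4 this order rests on the scaling by length, since STAG1 had fewer counts than STAG2 there (log2 ratio -0.038). With the medians of neighbours within 5 Mb taken off, described below, STAG1 and STAG2 both had a log2 fold change of -0.13. The ratio was not tested on that basis.

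The total of the SA transcripts was also lower, a description with no test. The summed TPM of STAG1 and STAG2 was 81.9, 65.9 and 70.1 in WT and 55.2, 55.0 and 58.6 in ARID1A-KO samples. As a share of the TPM of RAD21 it was 32.8%, 31.6% and 32.3% in WT and 28.2%, 28.5% and 27.4% in ARID1A-KO samples, again with no overlap.

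**Figure D2:**
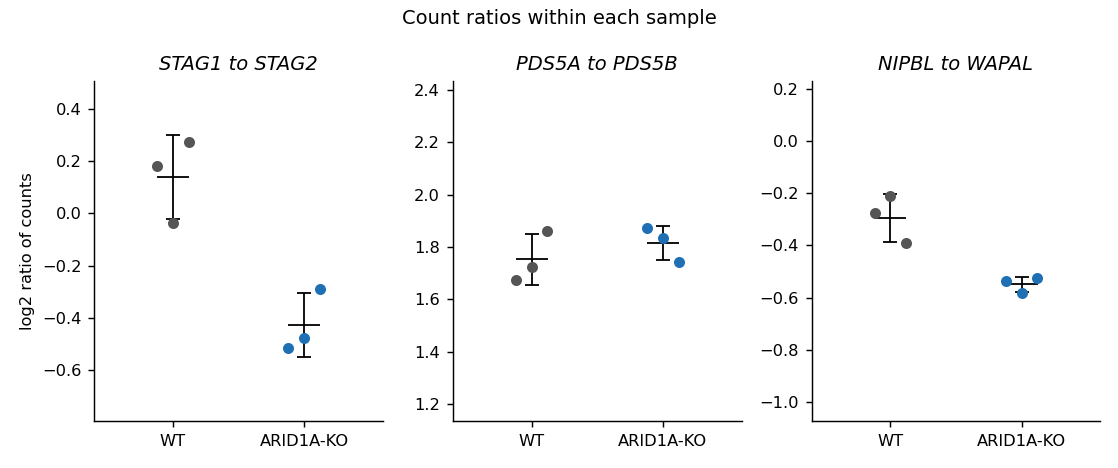
Log2 ratio of counts (y axes, each spanning the same range) of STAG1 to STAG2, PDS5A to PDS5B and NIPBL to WAPAL within each WT (grey) and ARID1A-KO (blue) sample, with bars for mean and SD of 3 samples. The ratios of STAG1 to STAG2 and of NIPBL to WAPAL are lower in all ARID1A-KO samples, by 0.57 and 0.25, and those of PDS5A to PDS5B overlap.

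Of the loading and release factors, WAPAL rose and NIPBL was not called. NIPBL (ENSG00000164190.12, chromosome 5 from 36876861 to 37066515, plus strand), the loader, had 136, 131 and 116 CPM in WT and 130, 122 and 126 CPM in ARID1A-KO samples. The ARID1A-KO samples lay within the WT range, and the log2 fold change was -0.022 (SE 0.071, 95% interval -0.18 to 0.14, edgeR adjusted p = 0.842). WAPAL (ENSG00000062650.13, chromosome 10 from 88195013 to 88281572, minus strand) had 165, 152 and 153 CPM in WT and 188, 183 and 182 CPM in ARID1A-KO samples. All ARID1A-KO samples were above WT, with a mean 17.6% higher (log2 fold change 0.23, SE 0.059, edgeR adjusted p = 0.0131). Without ARID1A-KO replicate 3 the adjusted p was 0.0503.

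The log2 ratio of NIPBL to WAPAL counts was -0.28, -0.21 and -0.39 in WT and -0.54, -0.58 and -0.53 in ARID1A-KO samples. All ARID1A-KO ratios were lower, by 0.25 on average (difference -0.25, SE 0.055, two-sided exact permutation p = 0.1, adjusted p = 0.15 over the 3 ratios). With the WAPAL counts as offset, edgeR gave NIPBL a log2 fold change of -0.26 (SE 0.069, 95% interval -0.41 to -0.099, adjusted p = 0.0147), where 46.1% of all genes were called. In TPM, NIPBL made up 32.2% ± 1.37 of the pair in WT and 28.4% ± 0.412 in ARID1A-KO (SD, n = 3 each). With the medians of neighbours within 5 Mb taken off, described below, NIPBL had a log2 fold change of 0.14 and WAPAL -0.082. NIPBL was then the higher of the pair, opposite to the ratio, and that difference was not tested.

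The PDS5 paralogs showed no call. PDS5A (ENSG00000121892.10, chromosome 4 from 39824483 to 39979576, minus strand) had 226, 200 and 213 CPM in WT and 222, 214 and 216 CPM in ARID1A-KO samples (log2 fold change 0.028, 95% interval -0.11 to 0.17, edgeR adjusted p = 0.765). PDS5B (ENSG00000083642.14, chromosome 13 from 33160564 to 33352157, plus strand) had 70.9, 60.5 and 58.6 CPM in WT and 60.6, 60.2 and 64.3 CPM in ARID1A-KO samples (log2 fold change -0.037, 95% interval -0.22 to 0.14, edgeR adjusted p = 0.755). For both genes the ARID1A-KO samples fell inside the WT range. An offset on exonic length, however, gave PDS5A a log2 fold change of 0.20 (edgeR adjusted p = 0.0405). The log2 ratio of PDS5A to PDS5B counts was between 1.67 and 1.86 in WT and between 1.74 and 1.87 in ARID1A-KO samples, a difference of 0.062 (SE 0.068, two-sided exact permutation p = 0.4, also after adjustment over the 3 ratios). With the PDS5B counts as offset, edgeR gave PDS5A a 95% interval of -0.19 to 0.31 (adjusted p = 0.759, with 27.3% of all genes called).

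CTCF (ENSG00000102974.10, chromosome 16 from 67596310 to 67673086, plus strand) had 119, 106 and 109 CPM in WT and 128, 122 and 133 CPM in ARID1A-KO samples. The lowest ARID1A-KO sample was above the highest WT sample by a small margin, and the mean was 14.9% higher (log2 fold change 0.20, SE 0.066, edgeR adjusted p = 0.0405). This call was the weakest of the 5. It was lost when any sample other than WT replicate 3 was left out, with adjusted p-values between 0.0299 and 0.117 over the 6 samples left out, and without a filter on low counts (adjusted p = 0.0507).

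The genes around a gene on its chromosome gave a second reading of these changes. Other genes tested with a start within 5 Mb numbered 24 to 137 per gene. Around STAG1, 47 of 50 neighbours had a log2 fold change below 0, 34 were called lower and 1 higher, and the median was -0.52, close to the -0.65 of STAG1 itself. When this median was taken off, the log2 fold change of STAG1 was -0.13 (SE 0.096, edgeR adjusted p = 0.321), and with neighbours within 2 Mb -0.24 (adjusted p = 0.0882). The fall of STAG1 relative to WT therefore did not pass the threshold once set against the median of its surroundings. Each median entered the fit as a fixed value, here and below, so that SE and p leave out the spread of the neighbours. Whether the region or the gene carries the change was not tested, and no measure of DNA copy number was used here.

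CTCF was lower than the median of its surroundings. Of 137 neighbours, 125 had a log2 fold change above 0, with a median of 0.55, and 90 were called higher and 5 lower. CTCF, at 0.20, lay below 114 of them, and with the median taken off its log2 fold change was -0.35 (SE 0.066, edgeR adjusted p = 0.00369; within 2 Mb -0.32, adjusted p = 0.00621). The direction for CTCF was thus opposite against WT as such and against the median of its region. WAPAL lay close to the median of its 52 neighbours, 0.32, of which 19 were called higher and 2 lower, and with it taken off had -0.082 (SE 0.059, adjusted p = 0.324).

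**Figure D3:**
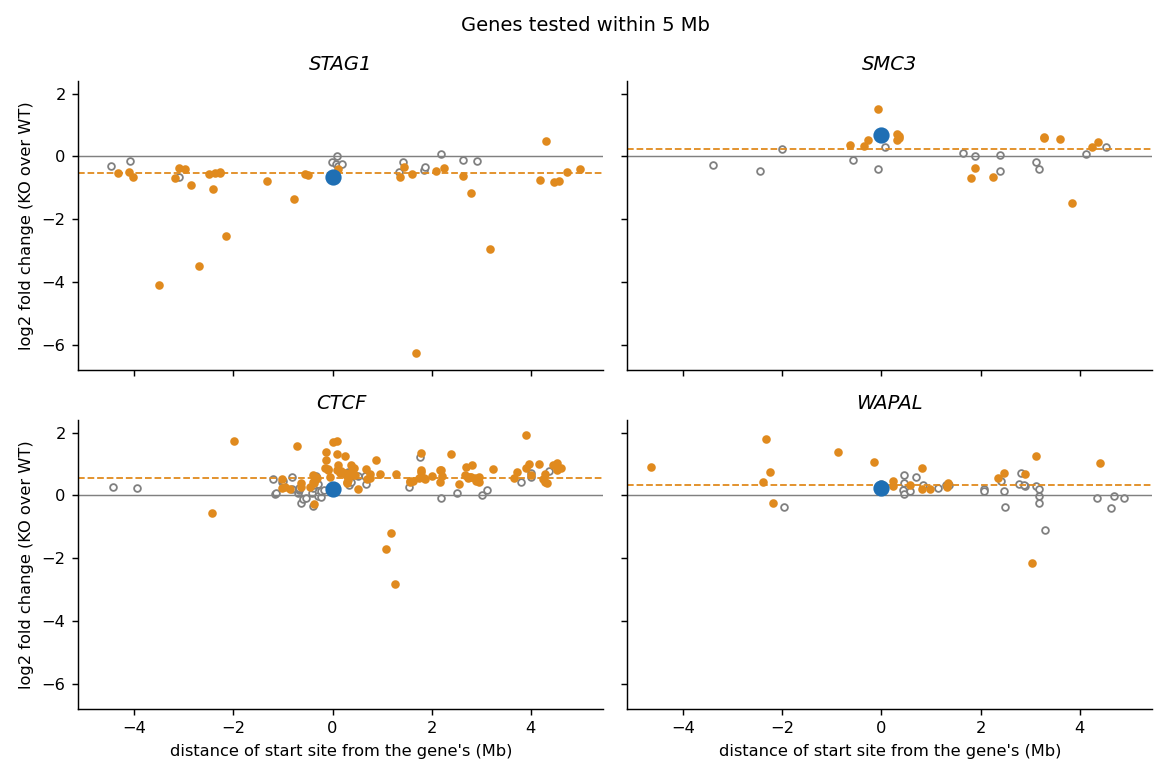
Log2 fold change between ARID1A-KO and WT (y axis) of the genes tested within 5 Mb of STAG1, SMC3, CTCF and WAPAL, against the distance of their start sites (x axis, Mb). Small filled points are called and open points not, the dashed line is the median of the neighbours (-0.52, 0.23, 0.55 and 0.32), and the large point with its SE is the gene itself. STAG1 and WAPAL lie near this line, SMC3 above it and CTCF below it.

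SMC3 and SMC1A stayed called relative to the median of their neighbours. SMC3 was above 29 of 31 neighbours, whose median was 0.23 with 13 called higher and 4 lower. With this median taken off it kept a log2 fold change of 0.44 (SE 0.094, edgeR adjusted p = 0.00688). Within 2 Mb it was 0.33 (edgeR adjusted p = 0.0244). Of the genes closest to SMC3, MXI1 (0.34), SMNDC1 (0.54), DUSP5 (1.50), PDCD4-AS1 (0.70), PDCD4 (0.52), BBIP1 (0.63) and SHOC2 (0.58) were called higher. RBM20 (0.28) and RP11-525A16.4 (-0.41), which lie among them, were not called. No window narrower than 2 Mb was used. The neighbours of SMC1A had a median of 0.066 over 82 genes, 72 of which were above SMC1A, and with it taken off SMC1A had -0.39 (SE 0.058, adjusted p = 0.00112; within 2 Mb -0.27, adjusted p = 0.00738). RAD21 followed its 24 neighbours, whose median was -0.23, and had 0.066 relative to them (adjusted p = 0.537). Around STAG2, PDS5A and PDS5B the medians were small, at 0.048, 0.0084 and -0.099. NIPBL had neighbours with a median of -0.16 and a log2 fold change of 0.14 relative to them (adjusted p = 0.154), or 0.23 within 2 Mb (adjusted p = 0.0334).

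**Figure D4:**
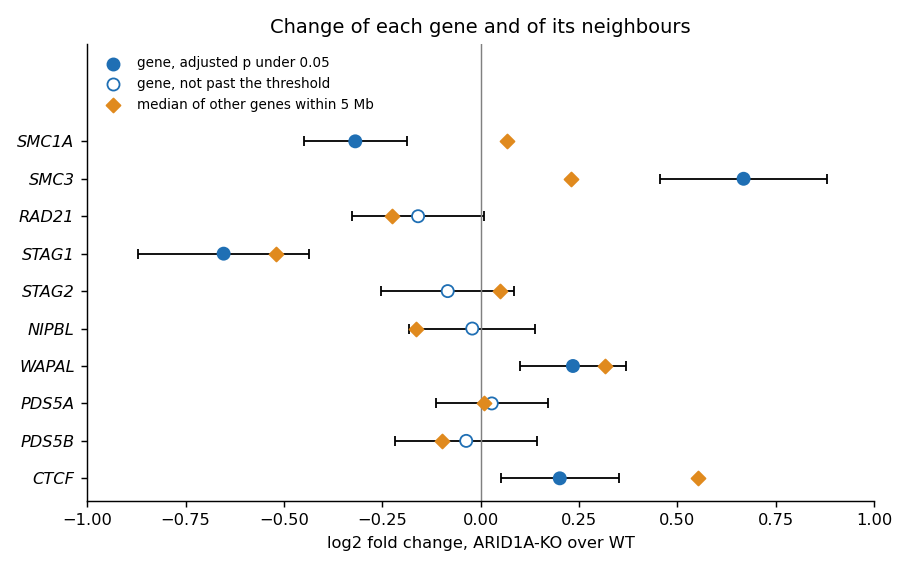
Log2 fold change of each gene between ARID1A-KO and WT (x axis) with its 95% interval, filled where the adjusted p from edgeR is under 0.05, and the median of the other genes tested within 5 Mb (diamonds). SMC1A and SMC3 lie away from the diamonds on either side, STAG1 (-0.65) and its neighbours (-0.52) lie together, and the diamond of CTCF (0.55) lies above the gene (0.20).

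Levels were compared between genes on the TPM scale. In WT cells RAD21 had the highest mean, 225 TPM ± 21.9 (SD, n = 3). SMC3 (86.6 ± 11.9), CTCF (85.0 ± 6.16) and SMC1A (83.6 ± 1.95) followed and could not be ordered, since their ranges overlapped. WAPAL (70.7 ± 4.20) and PDS5A (57.3 ± 4.07) came next. The range of WAPAL was apart from those of SMC1A and PDS5A and met that of SMC3, whose lowest sample (74.9) was under the highest of WAPAL (75.5). Then came STAG1 (39.0 ± 5.61), STAG2 (33.7 ± 3.40) and NIPBL (33.6 ± 3.03) with overlapping ranges, apart from PDS5A above them, and PDS5B was lowest (15.7 ± 1.82). In ARID1A-KO cells the ranges of all 9 pairs of genes next to each other were apart. For NIPBL and STAG2 they were barely so, with a lowest value of 31.89 for NIPBL and a highest of 31.84 for STAG2. The order was RAD21 (201 TPM ± 11.2), SMC3 (137 ± 10.1), CTCF (97.3 ± 6.66), WAPAL (82.8 ± 1.50), SMC1A (66.7 ± 0.884), PDS5A (58.2 ± 1.40), NIPBL (32.9 ± 1.11), STAG2 (31.6 ± 0.221), STAG1 (24.7 ± 2.06) and PDS5B (15.3 ± 1.07). On this scale SMC1A stood above WAPAL and STAG1 above STAG2 in each of the WT samples and below them in each of the ARID1A-KO samples. This order is given as a description with no test. For STAG1 in WT replicate 4 it rests on the scaling by length, since the log2 ratio of its counts to those of STAG2 was -0.038.

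The wider pathway was followed in 4 lists of 47 genes, 46 of which were tested. Of these, 7 were called higher and 6 lower, or 28.3%, against 36.2% of all genes tested. The median log2 fold change was -0.0086. Among 16 genes of loading, acetylation, protection and cleavage, 4 were higher and 2 lower. MAU2, the partner of NIPBL in the loader, fell from 39.6 ± 2.45 to 25.6 ± 1.18 CPM (SD, n = 3 each; log2 fold change -0.63, SE 0.073, edgeR adjusted p = 0.000196), and relative to neighbours within 5 Mb it had -0.26 (adjusted p = 0.0237). Of the subunits of the loader, MAU2 was thus called lower and NIPBL not called, and the difference between their changes was not tested.

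Among the other genes of this list, WDHD1 (log2 fold change 0.49), a replication factor needed for cohesion, CHTF8 (0.46), a subunit of the alternative clamp loader, and TIPIN (0.23), of the fork protection complex, were higher. CHTF8 is among the 137 neighbours of CTCF within 5 Mb, whose median was 0.55. PTTG1, the securin that holds separase inactive, was lower (-0.31). CDCA5 (0.18), which encodes sororin, the protector of cohesin against WAPAL, was also called higher and is named outside the rule for named genes, after its values were seen. CHTF8 is the name of more than 1 entry in the tables, and the entry with more counts was used. Of the same clamp loader CHTF18 (0.00056) and DSCC1 (0.13) were not called, nor were TIMELESS (-0.031), the partner of TIPIN, and the helicase DDX11 (-0.027). The acetyltransferases ESCO1 and ESCO2, the deacetylase HDAC8, separase (ESPL1) and the shugoshins SGOL1 and SGOL2 were not called.

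Of the 5 meiotic and germline paralogs, SMC1B had at most 2 counts in a sample and was not tested. CTCFL, the germline paralog of CTCF, was called higher (log2 fold change 1.71, SE 0.42, edgeR adjusted p = 0.0114) at a mean of 0.079 CPM in WT and 0.251 CPM in ARID1A-KO, levels of few counts per sample. STAG3, REC8 and RAD21L1 were not called, and no sample had more than 5.15 CPM summed over the list. Among 17 genes of condensin and SMC5/6, the related ring complexes, 1 was called higher and 3 lower, or 23.5%, against 36.2% of all genes. Of the ATPases shared by both condensins, SMC4 was lower (-0.62, from 282 ± 18.7 to 184 ± 15.3 CPM) and SMC2 was not called (-0.24, edgeR adjusted p = 0.0717). Also lower were NCAPH (-0.31) and NCAPD2 (-0.18), subunits of condensin I, and NSMCE4A (0.33), of SMC5/6, was higher. Of 9 factors known to act with CTCF or at loop anchors, 2 were called (22.2%, against the same share of all genes). LDB1, which joins enhancers and promoters, was higher (0.64, from 43.8 ± 1.17 to 68.2 ± 1.93 CPM) and WIZ, a zinc-finger protein, was lower (-0.46, from 80.4 ± 4.26 to 58.5 ± 3.78 CPM). ZNF143, YY1, MAZ, CHD8, PATZ1, TOP2B and ADNP were not called.

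**Figure D5:**
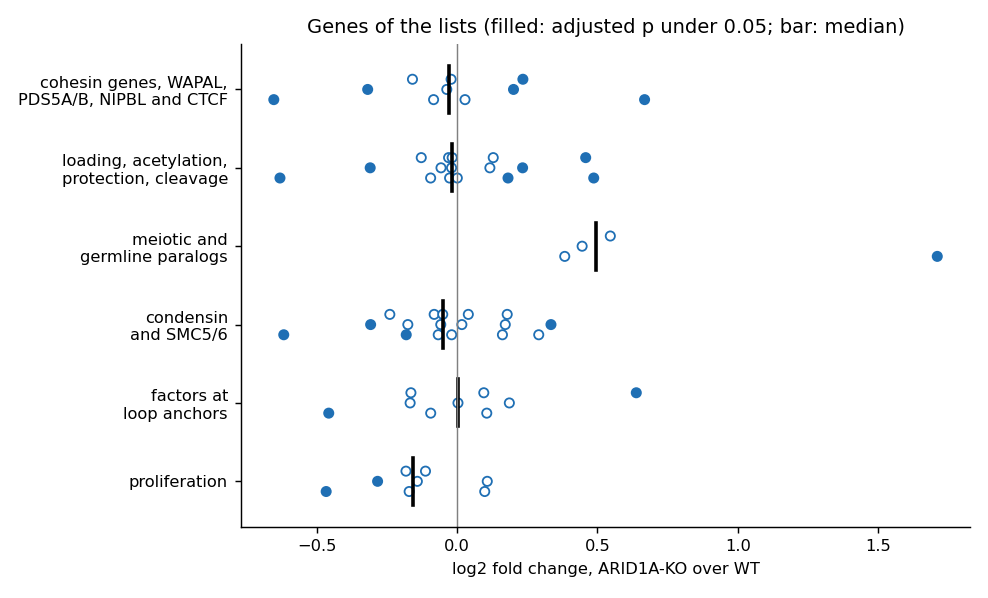
Log2 fold change between ARID1A-KO and WT (x axis) of each tested gene in 6 lists (rows), filled where the adjusted p from edgeR is under 0.05, with a bar for the median of the list. The 10 genes of cohesin, its regulators and CTCF have a median of -0.029 and spread from -0.65 (STAG1) to 0.67 (SMC3).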

How the data were processed

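Paired reads of 6 libraries were mapped to GRCh37 by the authors with STAR (Roddy pipeline), and featureCounts gave the raw counts they deposited for each gene. The reverse-stranded counts were used here, since forward-strand counts came to 5.83% to 6.15% of them. The TPM values are those the authors deposited for reverse-stranded counts, in the version that sums to 1000000 per sample, and other deposited TPM and FPKM columns were not used. The methods name a total RNA kit and the labels polyA RNA. Tool versions are not given in the sources used here.

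Counts passed filterByExpr and were compared with edgeR 4.0.16 (TMM, quasi-likelihood, Benjamini-Hochberg) under R 4.3.3, with genotype as the sole term and a common BCV of 0.111. Ratios were tested with exact permutation tests in Python 3.11.15 with NumPy 2.4.6. Replicates differed by more than sampling noise (chi-square per gene 7.57 to 32.9). The fits were tested on simulated data. Named genes are the 10 chosen genes, ARID1A and, per list, the 5 called genes with the largest log2 fold changes. The 10 genes and all lists were chosen with earlier results of these data known. Alternatives were unstranded counts, RLE, DESeq2 1.42.0, other filters (at least 10 counts in every sample, or none), the replicate number as a block, each sample left out, loess offsets (span 0.3) on length and GC content, neighbours' medians, an adjusted p under 0.01 and, for TPM and ratios, other scales.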

Additional observations from a re-analysis of the deposited data

Results flagged for a closer look

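Forward-strand counts lay outside the reverse-stranded counts that all comparisons used, and at RAD21 and STAG1 they did not overlap between the genotypes. Forward-strand counts at RAD21, which carries RAD21-AS1 on the opposite strand, were 25, 23 and 18 in WT and 41, 22 and 34 in ARID1A-KO samples. Divided by the reverse-stranded library size in units of 1000000, the lowest ARID1A-KO sample (0.404) was above the highest WT sample (0.374). These counts came to between 0.07% and 0.16% of the reverse-stranded counts of RAD21, and counting error alone is large at such numbers. At STAG1, which PCCB overlaps on the opposite strand, forward-strand counts were 67, 70 and 53 in WT and 34, 20 and 39 in ARID1A-KO samples, and on the same scale the highest ARID1A-KO sample (0.497) was below the lowest WT sample (0.885). These differences were not tested, and the share of all genes with such a separation is not given here. By their own reverse-stranded counts, RAD21-AS1 (log2 fold change 0.26) was not called and PCCB (-0.58) was called lower. At the other 8 genes the forward-strand values of the genotypes overlapped. Of the genes overlapping the 10 on the same strand, 12 in number, none had more than 28 counts in a sample.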

How the results depend on the processing

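SMC3 (log2 fold change 0.33 to 0.79 over 16 alternatives), SMC1A (-0.39 to -0.18) and MAU2 (-0.69 to -0.23) kept their calls throughout, and STAG1 (-0.75 to -0.54) in all but the 2 that took off neighbours' medians. An adjusted p under 0.01 left 4414 genes called, 3 of the 10 cohesin genes and 7 pathway genes. With each sample left out, 3 to 5 of the 10 were called (3 without ARID1A-KO replicate 3), 5285 to 7050 genes, and 9 to 14 pathway genes. The median of neighbours within 5 Mb taken off also left 3 of the 10. That offset and the 2 Mb one turned the direction of RAD21 (0.066 with both), NIPBL (0.14 and 0.23), WAPAL (-0.082 and -0.11), PDS5B (0.062 and 0.14) and CTCF (-0.35 and -0.32). STAG2 had 3 neighbours within 2 Mb and no such value. Offsets on length turned NIPBL (0.15) and PDS5B (0.14), and those on GC content NIPBL (0.094), PDS5B (0.083) and STAG2 (0.035). With samples left out, NIPBL (-0.088 to 0.018), PDS5A (-0.017 to 0.064) and PDS5B (-0.092 to 0.043) changed sign, NIPBL without WT replicate 3 or ARID1A-KO replicate 4 (0.0019), PDS5A without WT replicate 4 and PDS5B without WT replicate 3. In edgeR with the partner as offset, the ratios of STAG1 to STAG2 (-0.57) and NIPBL to WAPAL (-0.26) passed the threshold, which 3 against 3 permutations cannot. The causes were not tested. With each sample left out, the ratios were -0.65 to -0.50 for STAG1 to STAG2, 0.023 to 0.12 for PDS5A to PDS5B and -0.30 to -0.21 for NIPBL to WAPAL. The ratios were not recomputed with neighbours' medians taken off. Within 5 Mb those medians left STAG1 and STAG2 both at -0.13, and NIPBL (0.14) above WAPAL (-0.082).

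Replicate numbers did not pair the samples, with correlations of deviations of -0.24, 0.49 and 0.31 between WT and ARID1A-KO samples numbered 3, 4 and 5, and not every sample correlated best with its own number. A replicate block gave 7477 genes and 5 of the 10 cohesin genes called and changed no call among the 10, with STAG1 at -0.65, SMC3 at 0.67 and the ratio of STAG1 to STAG2 at -0.57.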
